A study of Homo sapiens with 12 samples.

Results

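The genes that turn squalene into lanosterol and then strip methyl groups from lanosterol were followed in endometrial cells cultured with AG-205. The 10 members, FDFT1, SQLE, LSS, CYP51A1, TM7SF2, LBR, MSMO1, NSDHL, HSD17B7 and ERG28, were taken by symbol from a list of pathway steps. Each matched 1 of the 58735 genes in the count matrix. The list was made without a filter on measured values but with earlier results of these data known, so it is not independent of them. All 10 had enough reads to be tested in every comparison. RNA was sequenced from 12 libraries in 4 groups of 3: HEC-1A cells with AG-205, HEC-1A cells with DMSO, T-HESC cells with AG-205 and T-HESC cells with DMSO. HEC-1A is an epithelial line from an endometrial adenocarcinoma, and T-HESC is a line of endometrial stromal fibroblasts immortalised with telomerase, so that each cell type is represented by a single line. AG-205, sold as an inhibitor of the membrane protein PGRMC1, was given at 15 µM for 32 h, and the controls received its solvent DMSO for the same time. All cells were in medium with fetal bovine serum and without phenol red.

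The members form a continuous stretch of cholesterol synthesis. Squalene synthase (FDFT1) joins farnesyl diphosphate units into squalene, squalene epoxidase (SQLE) adds oxygen and is a rate-controlling enzyme of the pathway, and lanosterol synthase (LSS) closes the rings. The cytochrome P450 CYP51A1 removes the methyl group at carbon C14, and the double bond left there can be reduced by TM7SF2 or by LBR, a protein of the inner nuclear membrane that also binds lamin and chromatin. The methyl groups at C4 are then removed by the oxidase MSMO1, the decarboxylating dehydrogenase NSDHL and the ketoreductase HSD17B7, which ERG28 is thought to hold together on the endoplasmic reticulum membrane. Many genes of cholesterol synthesis are transcriptional targets of SREBP-2, which is released from the endoplasmic reticulum when sterols are scarce.

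Total counts per library ranged from 7168542 to 15178276. Levels are given as CPM, the reads of a gene scaled to library size after TMM normalisation of all 12 libraries, and are shares of a library's RNA, so that more transcript per cell and less of other RNA cannot be told apart. Spread within groups, as edgeR's biological coefficient of variation, was 10.1% for HEC-1A but 33.6% for T-HESC, where AG-205 replicate 1 stood apart on the first principal component (score 89.3 against -37.9 to 2.77 in the other 5 libraries). The lines carried their own markers: the 7 stromal markers summed to between 16998 and 26556 CPM in T-HESC with DMSO and to at most 13.3 CPM in HEC-1A with DMSO. EPCAM was at 243 ± 12.9 CPM in HEC-1A and 0.33 ± 0.15 CPM in T-HESC (SD, n = 3, DMSO), whereas KRT19 was at 100.1 ± 3.40 and 106 ± 3.89 CPM.

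The first question was whether AG-205 altered expression of the 10 genes within each line. In HEC-1A, 9 of the 10 were upregulated, all except LBR, with a median over the 10 of 1.92 on the log2 scale against 0.01 over all genes tested (edgeR's quasi-likelihood test, with calls at an adjusted p below 0.05 and more than 1 on the log2 scale). Across all 14122 genes tested, 2.58% were called higher. In T-HESC, 4 of the 10 were called higher, FDFT1, SQLE, MSMO1 and HSD17B7, where 0.0800% of 13753 genes were called higher, and the median over the 10 was 2.06 against 0.02 over all genes. The summed level of the 10 genes went from 524 ± 12.5 to 2037 ± 35.8 CPM in HEC-1A and from 536 ± 44.9 to 2546 ± 399 CPM in T-HESC (SD, n = 3). The count of 4 in T-HESC moved with single libraries. Leaving out the first AG-205 library gave 8, where 69 of 14088 genes were called higher. Leaving out the third gave 2, where 5 of 14143 genes were called higher. Leaving out the second, or any 1 of the 3 DMSO libraries, gave 0, and in each of those runs no gene at all was called. The count in T-HESC also depended on the tool. DESeq2, which the authors also used, called 9 members higher, where it called 107 of 13753 genes higher.

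**Figure D1:**
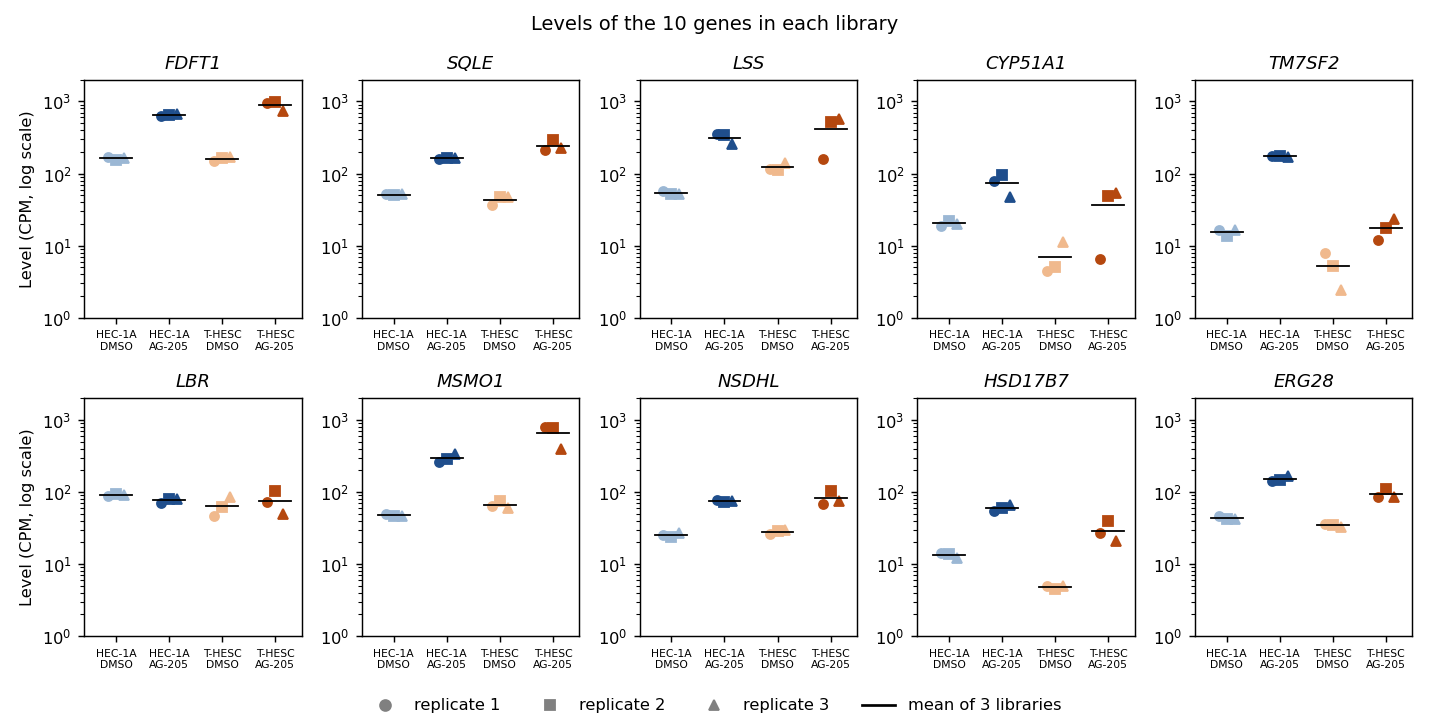
Level of each gene in CPM (log axis) in the 12 libraries, with symbols for the replicate number and a black bar for the mean of 3 libraries. In HEC-1A all 3 AG-205 libraries lie above all 3 DMSO libraries for 9 genes and below them for LBR, and in T-HESC they lie above for 8 genes and overlap for CYP51A1 and LBR.

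In terms of single libraries, 9 members had every HEC-1A AG-205 library above every DMSO library, which was so for 16.4% of all genes tested, and LBR had every one below, as did 15.0% of genes. In T-HESC, 8 members had every AG-205 library above every DMSO library, against 6.23% of genes. CYP51A1 and LBR were the 2 members whose groups overlapped in that line.

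The 3 enzymes from farnesyl diphosphate to lanosterol were upregulated in HEC-1A. FDFT1, the most abundant member there, was at 169.7, 153 and 167 CPM in DMSO replicates 1 to 3 and at 630.2, 651 and 671 CPM with AG-205. That is a rise of 3.99-fold (log2 2.00, SE 0.09, adjusted p = 4.4e-08 by edgeR), with no overlap between groups. SQLE went from 51.3, 49.8 and 51.8 CPM to 159, 164 and 165 CPM, a rise of 3.19-fold (log2 1.67, SE 0.09, adjusted p = 9.5e-08), with libraries of a group nearly level. LSS went from 56.4, 52.7 and 51.8 CPM to 348, 342 and 257 CPM, a rise of 5.90-fold (log2 2.56, SE 0.12, adjusted p = 5.0e-08). The third AG-205 library, the shallowest of all 12, gave the lowest LSS of its group.

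In T-HESC FDFT1 and SQLE rose as well, and all 3 enzymes had more scatter. FDFT1 was at 147, 164 and 167 CPM with DMSO and at 955, 988 and 747 CPM with AG-205, a rise of 5.58-fold (log2 2.48, SE 0.24, adjusted p = 0.026). SQLE was at 36.3, 46.5 and 46.7 CPM with DMSO and at 214, 289 and 225 CPM with AG-205, a rise of 5.56-fold (log2 2.48, SE 0.24, adjusted p = 0.026). For both genes the lowest AG-205 library was several times the highest DMSO library. LSS was at 117, 111 and 140.0 CPM with DMSO and at 162, 517 and 568 CPM with AG-205. Its first AG-205 library was thus close to the controls while the other two were far above them, and its log2 value of 1.74 (SE 0.44, 95% interval 0.73 to 2.75) did not pass the test (adjusted p = 0.44). Without that library the LSS value was 2.12 with an adjusted p of 0.0049.

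**Figure D2:**
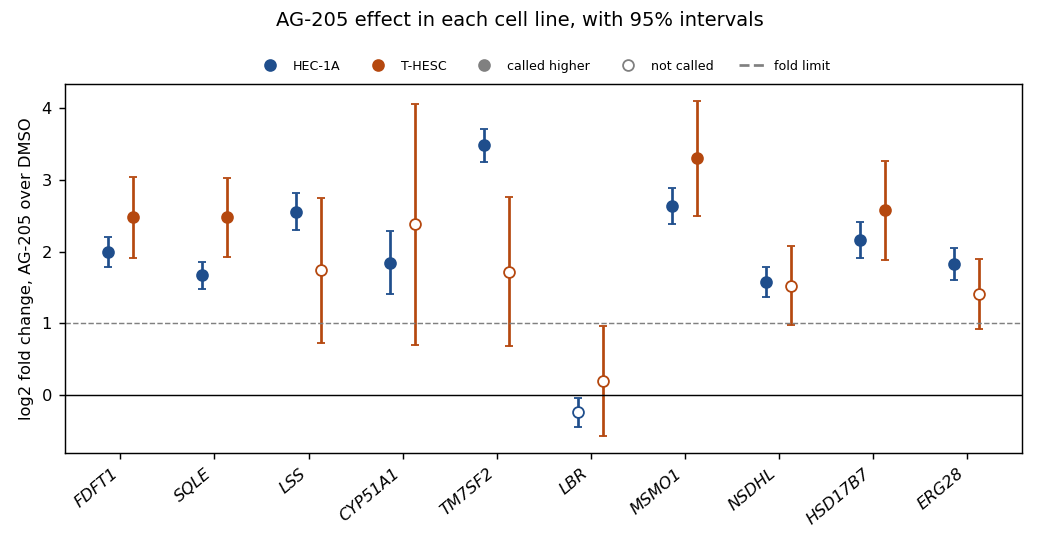
The log2 fold change of AG-205 over DMSO for each gene in each line, with 95% intervals from the edgeR fit, filled points for genes called higher and the fold limit of 1 as a dashed line. TM7SF2 is highest in HEC-1A at 3.48 and MSMO1 highest in T-HESC at 3.30, and LBR lies near 0 in both lines.

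At the C14 steps, the demethylase CYP51A1 and the reductase TM7SF2 were upregulated in HEC-1A. CYP51A1 was at 18.7, 22.3 and 20.2 CPM with DMSO and at 77.8, 94.6 and 46.5 CPM with AG-205, again lowest in the third library, and its rise was 3.60-fold (log2 1.85, SE 0.20, adjusted p = 8.4e-05). TM7SF2 (chr11:65111845-65116384, plus strand, GRCh38) was at 16.7, 13.8 and 16.3 CPM with DMSO and at 178, 175 and 169 CPM with AG-205. Its rise of 11.2-fold (log2 3.48, SE 0.11, adjusted p = 2.2e-09) ranked 1 by p-value among the 14122 genes tested. With all 12 libraries in 1 fit, where the scatter of T-HESC enters the error, CYP51A1 was the only member to lose its call in HEC-1A (adjusted p = 0.28).

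LBR (chr1:225401502-225428925, minus strand, GRCh38) did not rise. In HEC-1A it was at 88.1, 93.9 and 90.6 CPM with DMSO and at 70.1, 81.3 and 80.2 CPM with AG-205. All AG-205 values were below all DMSO values, and its change of -0.23 on the log2 scale (SE 0.09, 95% interval -0.44 to -0.03) did not pass the test after adjustment (adjusted p = 0.13). Without the third AG-205 library the adjusted p was 0.012, still far inside the fold limit. In T-HESC LBR ranged from 46.4 to 85.1 CPM with DMSO and from 49.5 to 103 CPM with AG-205, and the interval of its log2 fold change ran from -0.57 to 0.97.

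In T-HESC, CYP51A1 was at 4.51, 5.05 and 11.4 CPM with DMSO and at 6.57, 49.5 and 53.9 CPM with AG-205. Its first AG-205 library lay among the controls, and its log2 value of 2.38 had an SE of 0.73 and an adjusted p of 0.56. Without that library the value was 2.88 with an adjusted p of 0.020. TM7SF2 was at 7.89, 5.21 and 2.39 CPM with DMSO and at 11.9, 17.3 and 23.0 CPM with AG-205. These groups did not overlap, yet the DMSO libraries spread over a wide range and the log2 value of 1.72 (SE 0.45, 95% interval 0.68 to 2.76) did not pass the test (adjusted p = 0.44).

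Because TM7SF2 and LBR catalyse the same reduction, the share of TM7SF2 in their sum was taken per kilobase of exon, a ratio within each library that does not depend on scaling between libraries. In HEC-1A TM7SF2 made up 24.1%, 19.7% and 23.2% of the sum with DMSO and 80.9%, 78.3% and 77.9% with AG-205. LBR was therefore the major C14 reductase transcript in every HEC-1A control library and TM7SF2 in every AG-205 library. The difference was 56.7 percentage points, with p = 0.10 in a two-sided exact permutation test, the smallest that 3 libraries against 3 allow. In T-HESC the share was 22.2%, 12.2% and 4.50% with DMSO and 21.6%, 21.9% and 43.8% with AG-205. LBR remained the larger in all 6 T-HESC libraries, the groups overlapped, and the difference of 16.2 percentage points had p = 0.30 in the same exact test. The percentages depend on the exon length used.

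**Figure D3:**
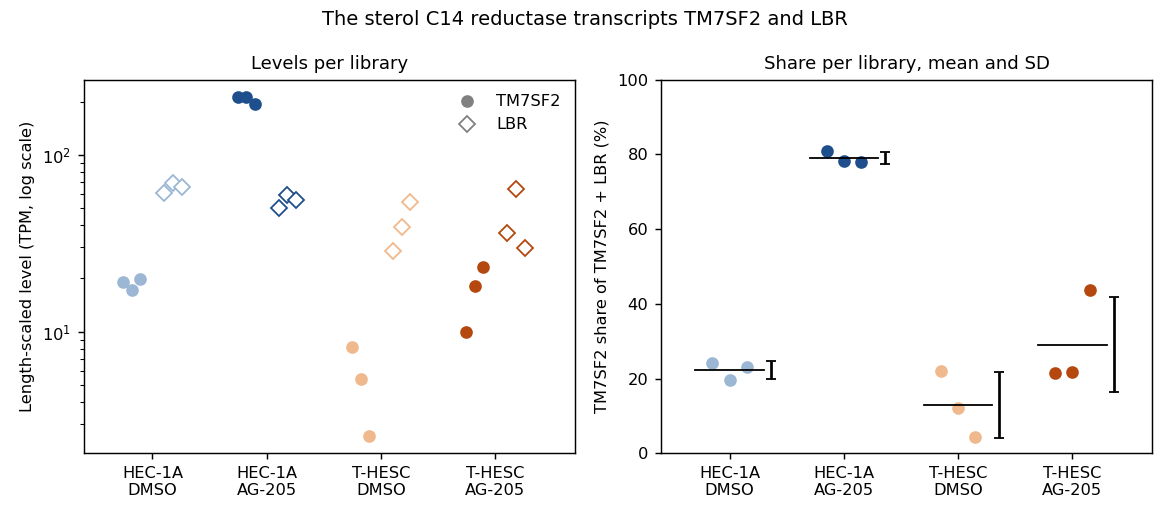
Left, length-scaled levels of TM7SF2 (filled) and LBR (open) in TPM on a log axis for each library. Right, the TM7SF2 share of their sum in percent, with the mean of 3 libraries as a bar and the SD beside it, which is 22.3 ± 2.30% and 79.0 ± 1.64% in HEC-1A and 12.95 ± 8.87% and 29.1 ± 12.7% in T-HESC without and with AG-205.

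The 4 genes of C4 demethylation were all upregulated in HEC-1A, and MSMO1 and HSD17B7 in T-HESC. MSMO1, which starts the oxidation of the C4 methyl groups, was at 50.003, 46.1 and 47.1 CPM with DMSO and at 263, 284 and 341 CPM with AG-205 in HEC-1A, a rise of 6.20-fold (log2 2.63, SE 0.12, adjusted p = 3.2e-08). In T-HESC it was at 63.7, 75.9 and 59.3 CPM with DMSO and at 800.0, 779 and 394 CPM with AG-205, a rise of 9.84-fold (log2 3.30, SE 0.35, adjusted p = 0.034). This was the highest fold change of a member in that line.

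NSDHL, the dehydrogenase that releases the oxidised C4 carbon, was at 25.0, 23.8 and 27.2 CPM with DMSO and at 77.2, 73.5 and 75.0 CPM with AG-205 in HEC-1A (log2 1.57, SE 0.10, adjusted p = 4.1e-07). It was at 25.9, 28.7 and 30.01 CPM with DMSO and at 67.4, 105 and 74.3 CPM with AG-205 in T-HESC, where all AG-205 libraries were higher and the adjusted p was 0.11. The effects in the lines were almost equal, at 2.97-fold and 2.88-fold.

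HSD17B7, which reduces the resulting ketone, was at 14.3, 14 and 12.1 CPM with DMSO and at 55.3, 60.6 and 65.4 CPM with AG-205 in HEC-1A, a rise of 4.48-fold (log2 2.16, SE 0.11, adjusted p = 1.2e-07). In T-HESC the control level was lower, at 4.96, 4.55 and 4.98 CPM, and AG-205 libraries were at 27.1, 39.4 and 21.0 CPM, a rise of 5.97-fold (log2 2.58, SE 0.30, adjusted p = 0.040). The lowest AG-205 value was far above the controls in both lines. The scaffold gene ERG28 was at 45.9, 41.6 and 42.0 CPM with DMSO and at 143, 148 and 168 CPM with AG-205 in HEC-1A (log2 1.83, SE 0.10, adjusted p = 1.5e-07). In T-HESC it was at 36.1, 35.3 and 33.0 CPM with DMSO and at 84.6, 111 and 85.2 CPM with AG-205, which did not pass the test (log2 1.41, SE 0.21, adjusted p = 0.096).

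Per kilobase of exon, the balance among these 4 transcripts differed between the groups. MSMO1 made up 32.9 ± 0.35% of their sum in HEC-1A with DMSO and 47.0 ± 2.00% with AG-205, and 43.4 ± 2.94% and 71.4 ± 7.45% in T-HESC (SD, n = 3). Its share was higher in every AG-205 library than in every DMSO library of the line. ERG28 went the other way, from 36.6 ± 0.87% to 30.01 ± 0.20% in HEC-1A and from 28.1 ± 1.68% to 13.2 ± 3.42% in T-HESC. The NSDHL share was also lower with AG-205, at 25.0 ± 1.63% and 17.2 ± 1.76% in HEC-1A and at 26.5 ± 2.50% and 13.5 ± 3.87% in T-HESC without and with it. HSD17B7 was the smallest component throughout, at 5.54 ± 0.51% and 5.74 ± 0.18% in HEC-1A and at 1.90 ± 0.21% and 1.93 ± 0.30% in T-HESC without and with AG-205. These shares are descriptions and were not tested.

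**Figure D4:**
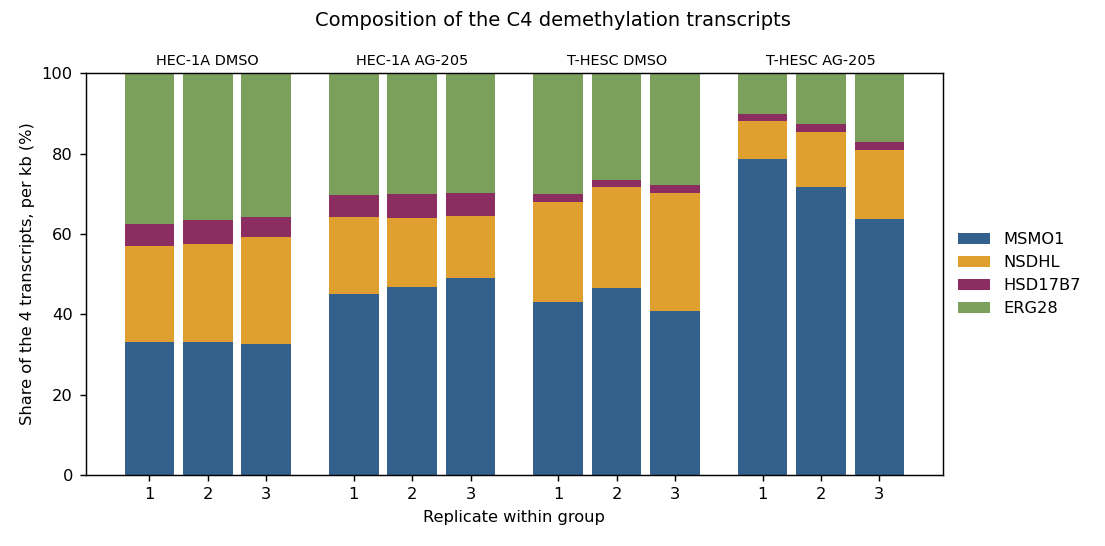
Share of MSMO1, NSDHL, HSD17B7 and ERG28 in the sum of the 4 transcripts per kilobase of exon (percent), 1 bar per library. MSMO1 takes the largest share in each AG-205 library, between 45.2% and 78.7%.

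The sequences upstream of the members were set beside these values, to show the letters before genes that did and did not rise. Sequences are from RefSeq on GRCh38.p14, and 8 of the 10 members had a promoter entry, from 250 bases before to 50 bases after the start. Searched on both strands were TCACNCCAC, a form of the sterol regulatory element bound by SREBPs, the same letters with 1 mismatch, CCAAT (bound by NF-Y), GGGCGG (bound by Sp1) and CACGTG (an E-box). TCACNCCAC was in 1.12% of 34796 promoters and in none of the 8. With 1 mismatch it was in 24.4% of promoters and in 3 of the 8, MSMO1, HSD17B7 and ERG28. CCAAT was in 34.6% of promoters and in 6 of the 8, GGGCGG in 44.9% and in 6 of the 8, and CACGTG in 7.20% and in LSS. The LBR window held none of these, and its 250 upstream bases had 36.8% G or C against 59.6% to 76.8% in the other 7. Capitals below mark matches to TCACNCCAC with 1 mismatch and to CCAAT, read on either strand, in bases outside annotated exons, and a match is a description of the letters only. The first 3 are shown because they hold both kinds of match at members called higher in HEC-1A, and LBR and CYP51A1 because they hold neither, the former not called and the latter called higher in HEC-1A. The windows are MSMO1 at chr4:165327419-165327666 on the plus strand, HSD17B7 at chr1:162790452-162790701 on the plus strand, ERG28 at chr14:75660877-75660989 on the minus strand, LBR at chr1:225428926-225429071 on the minus strand and CYP51A1 at chr7:92134504-92134603 on the minus strand.
MSMO1: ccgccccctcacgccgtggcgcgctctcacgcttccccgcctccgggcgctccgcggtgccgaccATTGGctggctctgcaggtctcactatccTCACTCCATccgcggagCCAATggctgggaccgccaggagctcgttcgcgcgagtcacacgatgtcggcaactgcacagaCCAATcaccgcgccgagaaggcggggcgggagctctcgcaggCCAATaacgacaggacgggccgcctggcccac
HSD17B7: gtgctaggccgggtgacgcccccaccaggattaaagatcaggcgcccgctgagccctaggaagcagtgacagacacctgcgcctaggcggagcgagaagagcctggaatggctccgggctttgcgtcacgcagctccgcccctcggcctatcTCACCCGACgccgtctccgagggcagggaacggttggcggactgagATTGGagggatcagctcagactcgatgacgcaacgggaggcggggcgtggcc
ERG28: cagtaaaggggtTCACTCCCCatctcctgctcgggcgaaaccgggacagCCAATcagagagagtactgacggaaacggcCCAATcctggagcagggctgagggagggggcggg
LBR: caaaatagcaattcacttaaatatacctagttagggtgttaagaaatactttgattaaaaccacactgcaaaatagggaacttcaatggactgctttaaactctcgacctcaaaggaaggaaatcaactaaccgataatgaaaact
CYP51A1: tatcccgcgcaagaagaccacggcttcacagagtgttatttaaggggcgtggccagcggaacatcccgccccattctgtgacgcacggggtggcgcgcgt

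The upstream window of TM7SF2, the member with the largest rise in HEC-1A, lies within exons of its neighbour VPS51 and of TM7SF2 itself. It held 1 CCAAT on the opposite strand, shown in capitals with 10 bases on each side (chr11:65111788-65111812, plus strand), and 4 copies of GGGCGG.
TM7SF2: ccgagcgccgATTGGctggtgtgct

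Whether the AG-205 effect differed between the lines was tested as the difference of the effects, T-HESC minus HEC-1A, over 16132 genes. By edgeR none of the 10 members was called, where 0.174% of genes were called in either direction. At an unadjusted p under 0.05 there were 3 members, TM7SF2, SQLE and FDFT1, and 1025 of the 16132 genes. DESeq2 called 1 member, TM7SF2, where it called 29 of 16132 genes higher and 62 lower. TM7SF2 had the largest difference, -1.75 (SE 0.46, 95% interval -2.74 to -0.75, adjusted p = 0.31), toward a lesser effect in T-HESC. It was called lower by DESeq2 (adjusted p = 0.047), by edgeR with all genes kept whatever their counts (adjusted p = 4.9e-04) and by limma with library quality weights (adjusted p = 0.0048). In the other 19 of 22 alternatives it was not called. With single libraries left out its value ran from -2.07 to -1.30, with adjusted p from 0.059 to 0.84 by edgeR. SQLE stood at 0.82 (SE 0.22, adjusted p = 0.34) and FDFT1 at 0.50 (SE 0.21, adjusted p = 0.74), both toward a greater effect in T-HESC. Over the 22 alternatives SQLE ran from 0.66 to 0.98, inside the fold limit, and FDFT1 from 0.41 to 0.62. Their lowest adjusted p-values over those edgeR, DESeq2 and limma fits were 0.0055 and 0.052. NSDHL was closest to no difference, at -0.03 with an interval of -0.55 to 0.49. For CYP51A1 the interval from -1.21 to 2.34 was too wide to separate a lesser from a greater effect.

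The lines were then compared with each other under the same treatment. With DMSO, 1 member, LSS, was higher in T-HESC, and 3 members, CYP51A1, TM7SF2 and HSD17B7, were lower, where 22.3% of 14789 genes were called higher and 22.3% lower. LSS was 2.27-fold higher (log2 1.18, SE 0.11, adjusted p = 1.8e-05). CYP51A1 was 3.00-fold lower (log2 -1.58, SE 0.32, adjusted p = 0.0018), TM7SF2 was 2.98-fold lower (log2 -1.58, SE 0.33, adjusted p = 0.0026) and HSD17B7 was 2.81-fold lower (log2 -1.49, SE 0.16, adjusted p = 3.3e-05). MSMO1, LBR and ERG28 had adjusted p-values under 0.05 but differed by less than the fold limit, at 0.46, -0.50 and -0.32. These counts are near the background of a comparison in which a large share of all genes differ.

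With AG-205, TM7SF2 and HSD17B7 were lower and MSMO1 higher in T-HESC than in HEC-1A, where 21.7% of 15201 genes were called higher and 21.7% lower. TM7SF2 was 10.0-fold lower (log2 -3.32, SE 0.28, adjusted p = 3.8e-05), a value that held past the test under all 16 alternatives. HSD17B7 was 2.07-fold lower (log2 -1.05, SE 0.27, adjusted p = 0.011) and MSMO1 2.22-fold higher (log2 1.15, SE 0.32, adjusted p = 0.016), both close to the fold limit. Only 1 of the 3 was called without T-HESC AG-205 replicate 1, and 2 without any other single library. These counts are no higher than the background of a comparison in which a large share of all genes differ. MSMO1 was at 0.93 with upper-quartile scaling and HSD17B7 at -0.87 with library quality weights, both inside the fold limit. Line, culture and library making cannot be told apart in either comparison.

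Length-scaled levels (TPM, counts per kilobase of exon, scaled to the same sum in each library) allowed members to be ordered within a group. In HEC-1A with DMSO, FDFT1 was first at 132 ± 4.45 TPM and was followed by ERG28 at 76.3 ± 1.11 TPM and MSMO1 at 68.7 ± 0.12 TPM (SD, n = 3). LBR overlapped MSMO1 at 65.4 ± 4.60 TPM, NSDHL and SQLE overlapped each other at 52.1 and 48.6 TPM, and LSS followed at 30.4 TPM. CYP51A1 and TM7SF2 overlapped at 20.1 and 18.7 TPM, and HSD17B7 was last at 11.5 ± 0.94 TPM. With AG-205, TM7SF2 moved from rank 9 to rank 4 at 207 ± 10.3 TPM and LBR from rank 4 to rank 9 at 54.9 ± 4.43 TPM, while FDFT1 at 519 ± 11.9 TPM stayed first and MSMO1 at 420 ± 46.8 TPM was second. In that group TM7SF2 overlapped LSS at 178 ± 32.7 TPM, and LBR overlapped CYP51A1 and HSD17B7.

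In T-HESC with DMSO the order began with FDFT1 at 112 ± 8.94 TPM and MSMO1 at 82.9 ± 10.1 TPM. The next 5 places, from LSS at 60.5 to SQLE at 35.8 TPM, overlapped neighbour by neighbour. CYP51A1, TM7SF2 and HSD17B7 were the lowest at 6.00 ± 3.39, 5.38 ± 2.80 and 3.60 ± 0.21 TPM and also overlapped. With AG-205, MSMO1 at 751 ± 252 TPM and FDFT1 at 579 ± 99.0 TPM overlapped at the top, and TM7SF2 at 17.1 ± 6.69 TPM was last, not separated from HSD17B7 at 20.2 ± 7.90 TPM. With lengths of the longest transcript in place of all exons the orders changed. FDFT1 then came before MSMO1 in this group, and in HEC-1A with DMSO LBR was at rank 2 and ERG28 at rank 4. From DMSO to AG-205 in HEC-1A, TM7SF2 then went from rank 8 to rank 3 and LBR from rank 2 to rank 9. LBR with AG-205 again overlapped CYP51A1 and HSD17B7.

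The AG-205 libraries of T-HESC differed from one another member by member. In replicate 1, FDFT1 was at 5.99 times the mean of the DMSO libraries, MSMO1 at 12.1 times and HSD17B7 at 5.61 times, so none of these genes was the lowest of the 3 libraries there. In the same library LSS was at 1.32 times and CYP51A1 at 0.94 times the DMSO mean, against 4.21 and 4.63 times for LSS and 7.10 and 7.73 times for CYP51A1 in replicates 2 and 3. That library also differed by transcript length: relative to the other two, the median gene with a longest transcript under 2000 bases was 0.62 higher and the median gene over 4000 bases 0.30 lower on the log2 scale. LSS has a longest transcript of 4886 bases and CYP51A1 of 3155 bases. Members that were not lowest in that library were LBR (3812 bases), HSD17B7 (3087), FDFT1 (2462) and MSMO1 (2227). SQLE (2962 bases), ERG28 (2320), TM7SF2 (2094) and NSDHL (1833) were also lowest there, at 4.96, 2.43, 2.30 and 2.39 times the DMSO mean. After a correction of each library for transcript length and GC content, added after the data were seen, 4 members were again called higher in T-HESC. In that run 24 of 13753 genes were called higher and 1 lower, against 11 and none in the main fit. LSS and CYP51A1 had adjusted p-values of 0.077 and 0.42 by edgeR with the correction. In HEC-1A the third AG-205 library, which had the lowest LSS and CYP51A1, had medians of 0.21 under 2000 bases and -0.13 over 4000 bases. The part of transcript length in the low LSS and CYP51A1 values was not tested further.

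**Figure D5:**
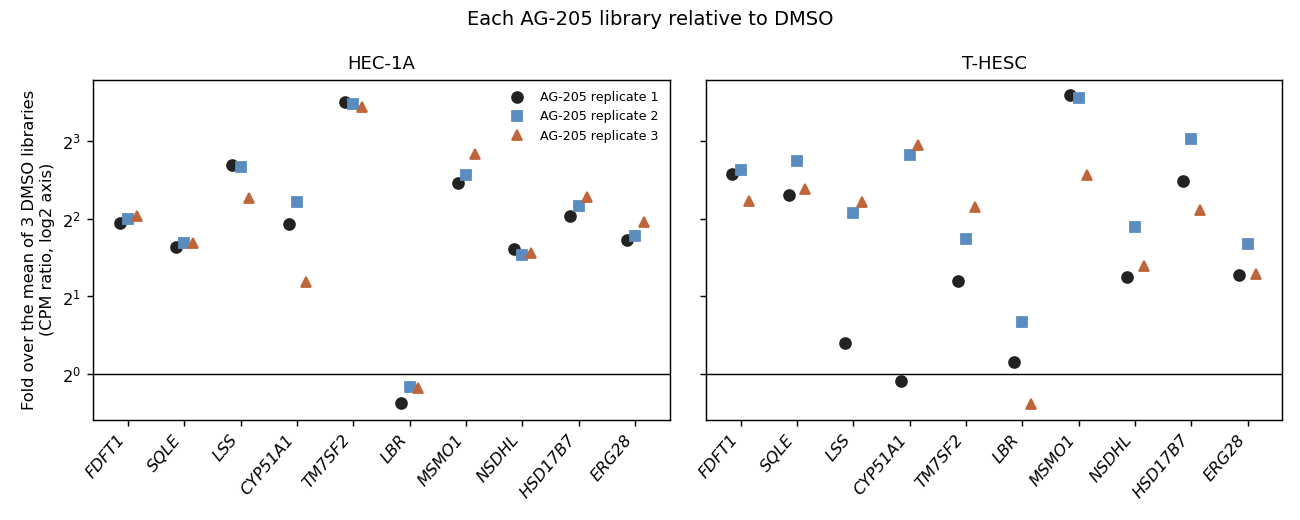
Level of each gene in each AG-205 library divided by the mean of the 3 DMSO libraries of its line (ratio of CPM, log2 axis), with a line at no change. T-HESC replicate 1 (black circles) lies near the line for LSS and CYP51A1 and with the other libraries for FDFT1, SQLE, MSMO1 and HSD17B7.

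The members were also compared in their pattern over the 12 libraries, as the correlation of log2 CPM centred on each line with the mean of the members. The points share libraries, lines and treatment, and the values are descriptions. NSDHL, HSD17B7 and SQLE followed the mean most closely (0.996, 0.986 and 0.979), CYP51A1 was lowest among the 9 that rose in HEC-1A (0.844), and LBR was at 0.125. Other genes with a closely similar pattern were HMGCS1 (0.992), FDPS (0.992), NEU1 (0.992), MVK (0.989), SETDB2 (0.988), ACAT2 (0.986) and ELOVL5 (0.985). Of these, HMGCS1, FDPS, MVK and ACAT2 are enzymes of the mevalonate steps upstream of squalene.

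Genes of the steps on either side of the members were examined in the same fits. Upstream, HMGCS1, which makes the precursor of mevalonate, was called higher with AG-205 in HEC-1A (log2 2.85, SE 0.12, adjusted p = 1.4e-08 by edgeR) and in T-HESC (log2 3.74, SE 0.41, adjusted p = 0.034). PMVK, a kinase of the same stretch, was at 0.04 (SE 0.10) in the former and 0.24 (SE 0.35) in the latter and was not called. Downstream, DHCR7 was called higher in HEC-1A (log2 2.14, SE 0.10, adjusted p = 5.1e-08), and its value of 2.54 in T-HESC (SE 0.46, adjusted p = 0.16) did not pass the edgeR test, whereas DESeq2 called it higher. DHCR7, the reductase that completes cholesterol, was at 2.19 times the DMSO mean in T-HESC AG-205 replicate 1 and at 7.46 and 8.05 times in the other two.

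Among genes that regulate sterol synthesis, INSIG1, which retains the SREBP complex in the endoplasmic reticulum, was called higher in both lines, with log2 fold changes of 3.22 (SE 0.12, adjusted p = 4.1e-09) and 3.13 (SE 0.30, adjusted p = 0.026). SREBF2, the gene of SREBP-2, was at 0.85 in HEC-1A (adjusted p = 5.5e-04), under the fold limit, and at 1.21 in T-HESC (adjusted p = 0.70). None of 5 genes for electron donors and turnover of these enzymes was called in either line by edgeR or DESeq2. Of these 5, 2 in HEC-1A and none in T-HESC had an unadjusted p under 0.05. Over all genes tested, 3693 of 14122 in HEC-1A and 740 of 13753 in T-HESC did by edgeR. The 2 in HEC-1A were POR, which passes electrons to CYP51A1 and SQLE, at 0.49 (SE 0.09, adjusted p = 0.0047) and CYB5B, a cytochrome b5, at 0.53 (SE 0.09, adjusted p = 0.0030), both below the fold limit.

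Markers of cell identity were examined in the same fits. Of 6 epithelial markers, KRT19 (log2 1.09, SE 0.09) and CLDN4 (log2 1.22, SE 0.11) were called higher in HEC-1A and 4 were not, among them EPCAM at -0.10 and CDH1 at 0.07. The summed level of the 6 ranged from 1297 to 1456 CPM with DMSO and from 1980 to 2047 CPM with AG-205. In T-HESC 4 of the 6 had enough reads, none was called by edgeR, 2 had an unadjusted p under 0.05, KRT19 at 1.05 and KRT18 at -1.47, and DESeq2 called 1 higher. Over all 13753 genes tested in T-HESC, 740 had an unadjusted p under 0.05 by edgeR and 820 by DESeq2. Of 7 stromal markers none was called in T-HESC by edgeR or DESeq2, with 1 at an unadjusted p under 0.05 by edgeR and 2 by DESeq2. Their sum ranged from 16998 to 26556 CPM with DMSO and from 12684 to 20262 CPM with AG-205, so that the groups overlapped. In HEC-1A the stromal sum was at most 14.2 CPM in any library. The part of these marker levels in the members' changes was not tested.

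Some members share sequence with other annotated genes, and strand and multiple matches in the counting are not stated. The largest overlap was that of CYP51A1 with ENSG00000285772, a gene on the same strand that shares 2844 bases, or 68.2% of CYP51A1 exon bases, and had 0 counts in all 12 libraries. How reads over those bases were assigned is not stated, so the level and rank of CYP51A1 are uncertain. HSD17B7P2, a pseudogene of HSD17B7, had 10.1% and 12.8% as many counts as HSD17B7 in HEC-1A without and with AG-205 and was called higher there as well (log2 2.46, SE 0.21, adjusted p = 1.2e-05). In T-HESC it had 23.4% and 15.2% as many, and its log2 value of 2.02 (SE 0.49, adjusted p = 0.42) did not pass the test. CYP51A1P2 had 6.68% and 6.93% as many counts as CYP51A1 in HEC-1A and was called higher (log2 1.95, SE 0.27, adjusted p = 6.2e-04), whereas in T-HESC no library had more than 2 of its counts. Counts of HSD17B7 and CYP51A1 are uncertain, since reads could be split with these copies. The antisense RNA ENSG00000255046 shares 217 exon bases with FDFT1 on the opposite strand, 4.27% of FDFT1 exon bases and 19.9% of its own. It was called higher in HEC-1A (log2 1.72, SE 0.40, adjusted p = 0.017). Without stated strand, reads over the shared bases cannot be told from those of FDFT1. VPS51, which shares 18 exon bases with TM7SF2, was at -0.14 on the log2 scale (SE 0.10, adjusted p = 0.43).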

How the data were processed

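RNA of 12 libraries (4 groups of 3) was analysed from the deposited counts, which are raw numbers of reads per gene: the authors selected polyA RNA, trimmed reads, aligned them to GRCh38 and counted them on an Ensembl annotation. Per the submitters' processing notes the tools were Trimmomatic 0.38, HISAT2 2.1.0 and featureCounts of Subread 2.0.0. Whether strand was used in counting, and how multiply matching reads were treated, is not given in the sources used here. The RNA is described as coming from 3 independent cultures, and which AG-205 and DMSO libraries share one is not given.

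Members were found by symbol through GENCODE 44 (58207 of 58735 identifiers had a symbol). The members and gene lists were chosen with earlier results of these data known. Each comparison was fitted with edgeR 4.0.16 in R 4.3.3 (TMM, filterByExpr, quasi-likelihood test, Benjamini-Hochberg adjustment over all genes tested), with calls at an adjusted p under 0.05 and an absolute log2 fold change above 1, tested on simulated data. Intervals are 95%. Each pair of libraries in a group differed by 1.79 to 207 in a chi-square per degree of freedom over genes, so none was a copy. TPM used the union of a gene's exons. The TM7SF2 share was compared with an exact permutation test (SciPy 1.17.1). Named were all members, up to 4 genes of each list, the 8 genes most similar in pattern, and overlapping genes or pseudogenes. Some genes that this rule names, and counts over the lists that hold them, are not reported here. Alternatives were DESeq2 1.42.0, RLE and upper-quartile scaling, no filter, a mean of at least 1 CPM, an adjusted p under 0.01, no fold limit, library quality weights (limma 3.58.1), a replicate block, a fit of all 12 libraries, omission of each library, other lengths, and, added after seeing the data, a correction for transcript length and GC content (mgcv 1.9.3). Plots were drawn with matplotlib 3.10.9. With 3 libraries a group, single genes cannot reach p under 0.1 by permutation, and at most 3 counts in every library was taken as the floor.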

Additional observations from a re-analysis of the deposited data

How the results depend on the processing

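In HEC-1A 9 members were called higher under every alternative except the fit of all 12 libraries, with 8 (135 of 16132 genes higher). In the other alternatives between 256 (adjusted p under 0.01) and 1038 (no fold limit) of all genes were called higher. In T-HESC the count of 4 became 0 at an adjusted p under 0.01, where no gene at all was called. It became 9 with DESeq2 (107 of 13753 genes called higher), 9 with no filter on low counts (145 of 29303) and 9 with library quality weights (230 of 13753). In the fit of all 12 libraries it became 8 (133 of 16132). When single libraries were left out it ranged from 0 to 8. It was 8 without AG-205 replicate 1 (69 of 14088) and 2 without replicate 3 (5 of 14143). It was 0 without AG-205 replicate 2 or without any 1 DMSO library, where no gene was called. The difference of effects between lines had 0 members called and 1, TM7SF2, with DESeq2, with no filter and with quality weights. In those 3 settings 29, 54 and 153 genes were called higher and 62, 87 and 227 lower. The 4 members called between the lines with DMSO became 7 with no fold limit, where 5335 of 14789 genes were called higher and 5329 lower. The 3 called with AG-205 became 1 at an adjusted p under 0.01 (2772 of 15201 genes higher, 2697 lower). With no fold limit they became 5 (3965 higher, 3846 lower). They became 2 with upper-quartile scaling (2781 of 15201 genes higher, 3910 lower) and 2 with quality weights (3264 higher, 3662 lower). When single libraries were left out they became 1 to 2. They became 1 without T-HESC AG-205 replicate 1 (3419 of 15831 genes higher, 3791 lower). Without any other single library they became 2 (3024 to 3612 genes higher, 2877 to 3611 lower). Upper-quartile scaling moved the median of all genes by more than 0.1 on the log2 scale between the lines.

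Signs turned only in values near 0 that were not called. Over single libraries left out, LBR in T-HESC ranged from -0.13 (without AG-205 replicate 2) to 0.43, LBR between the lines with AG-205 from -0.37 to 0.19 (without T-HESC AG-205 replicate 3), and FDFT1 between the lines with DMSO from -0.10 to 0.035 (without T-HESC DMSO replicate 1). NSDHL between the lines with AG-205 ranged from -0.11 (without T-HESC AG-205 replicate 2) to 0.26, and its difference of effects from -0.26 to 0.095, positive without HEC-1A DMSO replicate 2, T-HESC DMSO replicate 3, or T-HESC AG-205 replicate 1 or 3. With upper-quartile scaling NSDHL between the lines was -0.013 with DMSO and -0.12 with AG-205. With quality weights LBR between the lines with AG-205 was 0.10 and the NSDHL difference of effects 0.20, and with no filter the latter was 0.0015. The cause was not tested.

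The labels number the replicates in each group. Deviations of same-numbered AG-205 and DMSO libraries had correlations of -0.06, 0.18 and -0.004 in HEC-1A and 0.21, -0.43 and -0.03 in T-HESC. Such values from 3 libraries a group cannot show which libraries share a culture. Whether the numbers pair them is not known, and the main fits used no pairing. With the replicate block, 9 members were called in HEC-1A, where 335 of 14122 genes were called higher and 28 lower. In T-HESC 2 were called, where 9 of 13753 genes were called higher and none lower. For the difference of effects no member was called, and neither was any of the 16132 genes. The TM7SF2 share kept its direction under other lengths and without any single library, where no p under 0.1 is possible.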
